A study of Mus musculus with 9 samples.

Results

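The response of wild-type mouse hepatocytes to 24 h of tunicamycin was described across all expressed genes, with most room given to genes other than the familiar chaperones of the endoplasmic reticulum (ER). A gene was included when its FPKM (fragments relative to gene length and library size) was at least 1 in at least 3 of the 6 wild-type libraries, which held for 11311 of the 54532 genes in the table. These 6 of the series' 9 libraries were 3 from cells given vehicle (WT DMSO) and 3 from cells given tunicamycin at 6 µmol/L (WT Tu). All came from C57BL/6 mice carrying the floxed COX-2 gene, COX-2fl/fl, without the Alb-Cre transgene; they were littermates of the knockout animals, labelled male, and their age was given only as matched. After perfusion of the liver, the cells were kept in 1% serum for 2 h, and the treatment followed. Whether the 3 libraries of a group are 3 animals is not stated, and the p-values therefore reflect only how far these libraries differ, which may be technical.

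Tunicamycin blocks the first step of N-glycan assembly, so that glycoproteins misfold in the ER. Cells answer through the unfolded protein response, whose sensors are IRE1 (Ern1), PERK (Eif2ak3) and ATF6. ATF6 and spliced XBP1 switch on genes for folding, degradation and transport, IRE1 also cuts some ER-bound mRNAs, and PERK slows translation while favouring ATF4 and its target CHOP (Ddit3). Hepatocytes, which secrete most plasma proteins, have a large ER and a strong form of this response.

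The libraries held 14897358 to 16001484 fragments. The size behind the deposited FPKM was 1.06 to 1.07 times that total in WT DMSO and 0.948 to 0.984 times in WT Tu, and setting it to the total moved the median log2 change of all genes to -0.11. Xist, which is expressed from the inactive X of female cells, had 20659 to 33657 fragments in each of the 6 libraries, and Ddx3y, Eif2s3y, Kdm5d and Uty, on the Y chromosome, had 0 in each, so these libraries went against the labelled sex, in both groups alike. In the WT Tu group, replicate 1 lay away from the others (22.5 against -13.7 and -16.0 on the second principal component), with 6.87% of its fragments from mitochondrial genes against 4.39% to 5.90% in the other 5. The floxed target Ptgs2 (COX-2) was under the filter, with 21 fragments over the WT DMSO libraries together and 18 over the WT Tu libraries. The 10 hepatocyte markers summed to FPKM values of 19080 to 21300 in WT DMSO and 19100 to 20460 in WT Tu. In bulk RNA, fewer cells of a type and less RNA per cell cannot be told apart.

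The changes reached well beyond ER genes. With limma on log2(FPKM + 1) and Benjamini-Hochberg adjusted p below 0.05 over all 11311 genes, 2087 genes (18.5%) were higher and 1902 (16.8%) lower in WT Tu, 35.3% in all, and the groups did not overlap in 5406 genes (47.8%). With the FPKM rescaled to total fragments the split was 1416 higher and 3137 lower, and without WT Tu replicate 1 it was 1980 and 1783. Most changes were modest, with a median log2 change of 0.45 among the genes called higher and -0.42 among those called lower. Changes of at least 1, a doubling or halving, were found in 271 genes upward (2.4%) and 100 downward (0.884%). Large changes were mostly rises, since 41 genes rose by at least 2 and 5 fell by as much. The deepest of those falls, that of the predicted gene Gm21320 (-3.98), came from very uneven libraries: its WT DMSO values were 1.17, 91.0 and 26.5, and its WT Tu values 0, 0.295 and 0.0787. It did not pass without WT Tu replicate 1 (-3.90), 2 (-4.09) or 3 (-3.95). The genes called higher took 19.9% to 20.2% of fragments in WT DMSO and 30.6% to 33.1% in WT Tu. Of the 271 genes that rose by at least 1, 239 were outside the lists of ER chaperones and ER-associated degradation, and those 239 went from 1.36% to 1.43% of fragments to 3.41% to 3.76%. The filter could pass a gene through 1 group alone: 228 tested genes had all 3 libraries of a group under FPKM 1, of which 107 were called higher and 90 lower. Change also followed base composition. Of the 2826 genes with the lowest GC content 796 were higher and 139 lower, and of the 2825 with the highest 265 were higher and 875 lower; with the GC trend removed, 1828 genes were called higher and 1499 lower. The part of GC content in single genes was not tested beyond that refit.

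**Figure D1:**
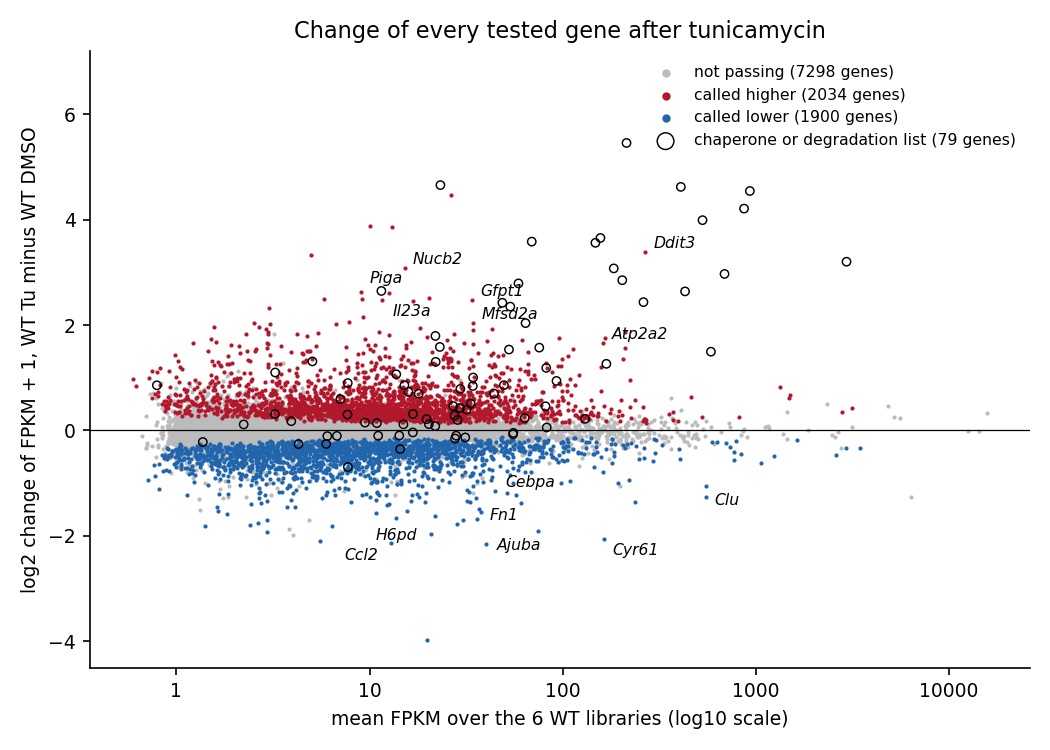
Log2 change of each of the 11311 tested genes (vertical axis, WT Tu minus WT DMSO, on log2 of FPKM + 1) against its mean FPKM over the 6 libraries (horizontal axis, log scale). Red and blue points passed the test, grey points did not, and open circles mark the 79 tested members of the chaperone and degradation lists; Ddit3, Nucb2, Gfpt1 and Mfsd2a are among the large rises outside those lists, and Cyr61, Ajuba and H6pd among the large falls.

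The letters known as ER stress elements were rare in promoters, and most of those found among large rises belonged to chaperone and degradation genes. The element ERSE pairs a CCAAT box with a CCACG 9 bases away, and ERSE-II sets an ATTGG beside a CCACG. In RefSeq promoters of GRCm38.p6, taken from 250 bases before to 50 after each start, the full ERSE (CCAAT, any 9 bases, CCACG) was found on either strand in 39 of 32851 promoters (0.119%). It was in 14 of 1979 promoters of genes called higher (0.707%), in 13 of 216 of those that rose by at least 1 (6.02%), in 0 of 1889 of genes called lower, and in 2 of 6273 of genes that did not pass (0.0319%), those of Acacb and Acnat2. The chaperone and degradation lists held it in 9 of 75 promoters (12%), and the genes outside them that rose by at least 1 in 4 of 186 (2.15%). Of these 4, Alg12 and 1700122E12Rik share their element with Creld2 and Calr, which are in those lists, and Zfp57 and Hnrnpa3 do not. ERSE-II (ATTGG, any base, CCACG) was in 12 of all promoters (0.0365%), with 7 among genes called higher, 0 among genes called lower and 1 among those that did not pass. The stretches below show the known element of Hspa5 and of Herpud1, 1 stretch shared by 2 genes that rose, and 3 genes outside the chaperone and degradation lists. Capitals mark the element, read 5′ to 3′ on the gene's own strand, so that CGTGG before ATTGG or CCAAT is the element in reverse.
Hspa5, ERSE, chr2:34772005-34772063, plus strand: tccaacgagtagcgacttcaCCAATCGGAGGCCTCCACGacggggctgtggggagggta
Herpud1, ERSE-II, chr8:94386357-94386407, plus strand: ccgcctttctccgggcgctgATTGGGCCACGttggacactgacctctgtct
Creld2, ERSE, chr15:88819500-88819558, plus strand: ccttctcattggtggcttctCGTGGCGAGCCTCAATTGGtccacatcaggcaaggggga
Alg12, the same bases on the minus strand: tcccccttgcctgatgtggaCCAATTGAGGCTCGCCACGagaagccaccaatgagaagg
Hnrnpa3, ERSE, chr2:75659009-75659055, plus strand: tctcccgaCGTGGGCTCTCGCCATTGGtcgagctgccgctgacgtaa
Nucb1, ERSE-II, chr7:45510419-45510469, minus strand: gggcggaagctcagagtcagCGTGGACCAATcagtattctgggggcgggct
Lgalsl, ERSE-II, chr11:20831287-20831337, minus strand: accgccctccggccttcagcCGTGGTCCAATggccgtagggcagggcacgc

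Alg12, a mannosyltransferase of N-glycan assembly, and Creld2, an ER folding factor, start on opposite strands with this element between them. Mean FPKM of Alg12 went from 10.5 to 23.7 and that of Creld2 from 62.3 to 996. Hnrnpa3, an RNA-binding protein, went from 12.8 to 27.1, Nucb1, a calcium-binding protein of the Golgi, from 14.1 to 22.1, and Lgalsl, a galectin-like protein, from 2.01 to 5.67. The CCAAT box alone, which is part of both elements (ATTGG is CCAAT on the other strand) and is also bound by NF-Y, was in 37.4% of all promoters. Its share climbed with the size of the rise, from 37.6% of promoters of genes up by less than 0.5 to 57.5% between 1 and 2 and 93.3% (28 of 30) at 2 or more. It was in 37.9% of promoters of genes that did not pass and, of genes that fell by at least 1, in 54.1% (40 of 74). TGACGTGG, an XBP1 element, was in 2.43% of promoters of genes called higher and 0.424% of those called lower, against 0.676% of all. TTGCATCA, letters of the composite element of ATF4 and CHOP, was in 0.758% and 0.900%, against 0.895% of all. A match is a description, not a site or a cause.

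**Figure D2:**
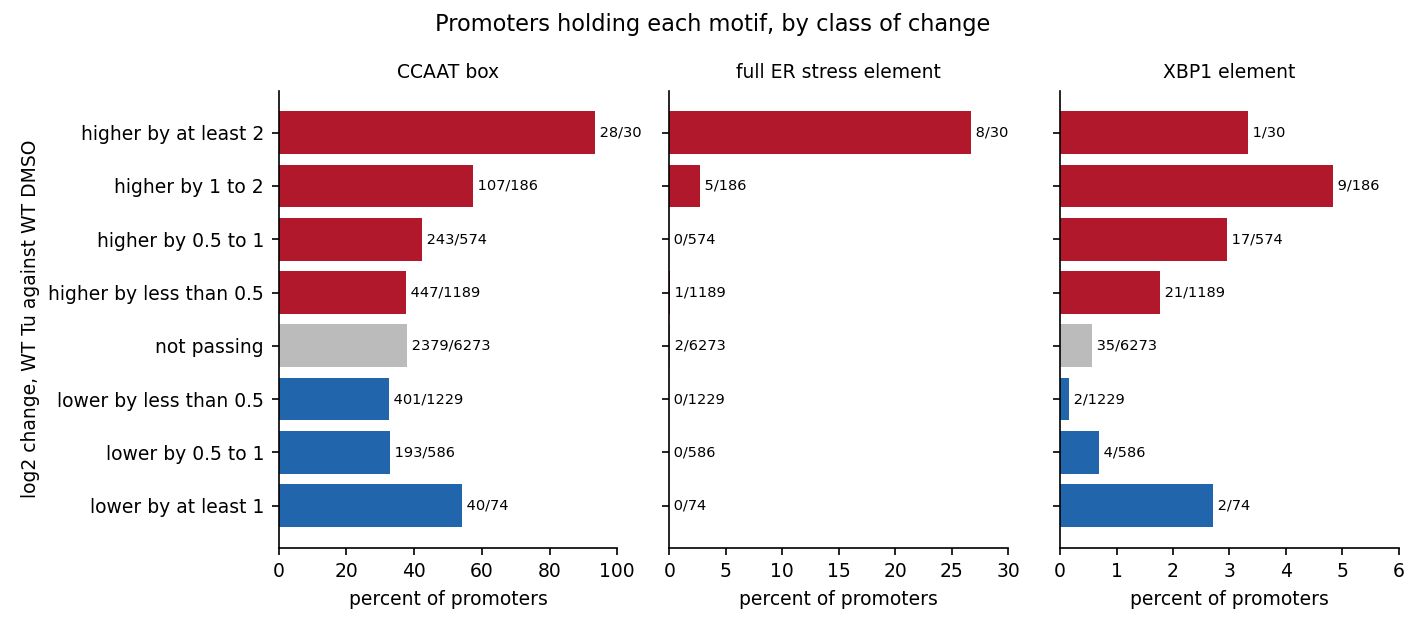
Percent of RefSeq promoters (horizontal axes, each with its own scale) that held the CCAAT box, the full ER stress element or the XBP1 element on either strand, by class of log2 change (vertical axis); numbers beside bars are promoters with the motif over promoters in the class. The CCAAT box reaches 93.3% and the full ER stress element 26.7% (8 of 30) among genes that rose by at least 2.

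The machinery that brings proteins into the ER rose, unevenly. Of 44 tested genes for targeting, translocation and signal cleavage, 27 were higher (61.4%) and 4 lower (9.09%). The shares over all genes were 18.5% and 16.8%. The list's median log2 change was 0.33 beside 0.00 over all genes (24 and 3 with the GC trend removed, 22 and 7 scaled to total fragments). Signal peptidase, which trims the entering chain, moved most: Spcs3, a subunit, read 17.8, 17.4 and 16.7 in WT DMSO against 79.9, 61.2 and 66.0 in WT Tu, a 3.99-fold rise (log2 1.93 ± 0.09 SE, limma adjusted p = 1.03e-06). The groups lay far apart, with WT Tu replicate 1 the highest. Its partners Spcs2 (22.8 to 64.7), Sec11c (4.30 to 15.3) and Sec11a (14.4 to 36.2) rose with it. Ssr3, of the translocon-associated complex, rose from 88.5 to 329, and Sec61a1, the pore of the channel, from 38.4 to 93.1. Against this, the channel-associated Tram2 (2.06 to 1.00), Ncln (38.4 to 26.1) and Emc1, of the membrane insertion complex (7.52 to 5.24), fell. Emc1 shares 26122 bases with Ubr4 on the same strand, and Ubr4 fell from 33.0 to 20.8. The part of Ubr4 reads in the fall of Emc1 was not tested.

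N-glycan assembly, the pathway that tunicamycin blocks, was higher in 25 (52.1%) and lower in 2 (4.17%) of 48 tested genes. The shares over all genes were 18.5% and 16.8%. The list's median was 0.32 (23 and 7 scaled to total fragments). The largest rise was in Gfpt1, the first enzyme of the hexosamine pathway that supplies UDP-GlcNAc (chromosome 6, 87042846 to 87092197, mm10). Its FPKM was 8.82, 9.76 and 10.5 in WT DMSO against 67.5, 54.2 and 53.3 in WT Tu, 6.01-fold higher (log2 2.47 ± 0.10, limma adjusted p = 3.85e-07). The groups were widely separate. The later enzyme Uap1 rose from 9.73 to 25.6, and Gmppb, which makes GDP-mannose, from 2.42 to 7.68. The oligosaccharyltransferase that moves the glycan to protein rose in several subunits, among them Magt1 (13.9 to 55.1), Ostc (14.2 to 47.3), Rpn1 (39.8 to 87.4) and Ddost (55.3 to 121). Dpagt1, the enzyme that tunicamycin inhibits, named here for that role, rose 1.78-fold, from 10.4 to 18.5 (log2 0.77 ± 0.09). Alg1 (12.2 to 8.06) and Dolk (7.70 to 5.17), an early mannosyltransferase and the dolichol kinase, fell.

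Transport between ER and Golgi rose broadly. Of 81 tested genes, 52 were higher (64.2%) and 4 lower (4.94%), beside 18.5% and 16.8% over all genes. Of the 81, 20 rose by at least 1, and the median log2 change was 0.51 (51 and 4 with the GC trend removed, 49 and 10 scaled to total fragments, 52 and 5 without WT Tu replicate 1). Sec24d, a cargo adaptor of the COPII coat that buds from the ER, read 19.9, 18.2 and 17.6 in WT DMSO against 66.8, 60.9 and 58.9 in WT Tu, with no overlap (3.35-fold, log2 1.69 ± 0.07, limma adjusted p = 3.68e-07). The cargo receptors Tmed3 (4.29 to 18.2) and Lman1 (22.7 to 62.7), the tether Uso1 (34.1 to 98.9), the fusion protein Stx5a (4.71 to 16.6) and Yipf5 (24.6 to 67.8) rose too. On the way back to the ER, Kdelr2, a receptor that returns chaperones, rose from 58.2 to 156, and Arfgap3, which acts on the COPI coat, from 5.62 to 18.5. Ergic3, a cargo receptor (26.4 to 18.8), and the GTPase Rab1b (56.8 to 42.4) were among the 4 that fell; with the GC trend removed Rab1b did not pass (log2 -0.26, limma adjusted p = 0.0633). The 51 tested genes of Golgi glycosylation did not share this balance, with 11 higher (21.6%), 10 lower (19.6%) and a median of -0.05. These shares were near the 18.5% and 16.8% over all genes (9 and 17 genes scaled to total fragments). Slc35b1, which brings ATP into the ER (28.2 to 94.6), and Nans, of sialic acid synthesis (5.05 to 20.2), rose most there, while Galnt10 (11.1 to 5.44) and St6gal1 (5.61 to 2.60) fell.

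ER calcium genes went in both directions. Of 23 tested, 7 were higher (30.4%) and 8 lower (34.8%), beside 18.5% and 16.8% over all genes (median 0.03). Nucb2, a calcium-binding protein (chromosome 7, 116504369 to 116540584, mm10), read 3.28, 2.11 and 1.93 in WT DMSO against 32.1, 25.4 and 26.2 in WT Tu, 11.4-fold higher (log2 3.08 ± 0.14, limma adjusted p = 1.13e-06). Atp2a2, the pump that fills the ER with calcium, read 81.8, 74.8 and 74.8 and then 267, 234 and 239, 3.20-fold higher (log2 1.66 ± 0.08), and the groups were widely separate for both genes. Atp2a2 shares 2200 bases with the predicted gene Gm43359 on the same strand. Saraf, which restrains calcium entry, rose from 22.8 to 47.1. The entry sensors Stim1 (2.54 to 1.63) and Stim2 (5.93 to 3.80) and the release channel Itpr3 (2.60 to 1.41) fell.

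**Figure D3:**
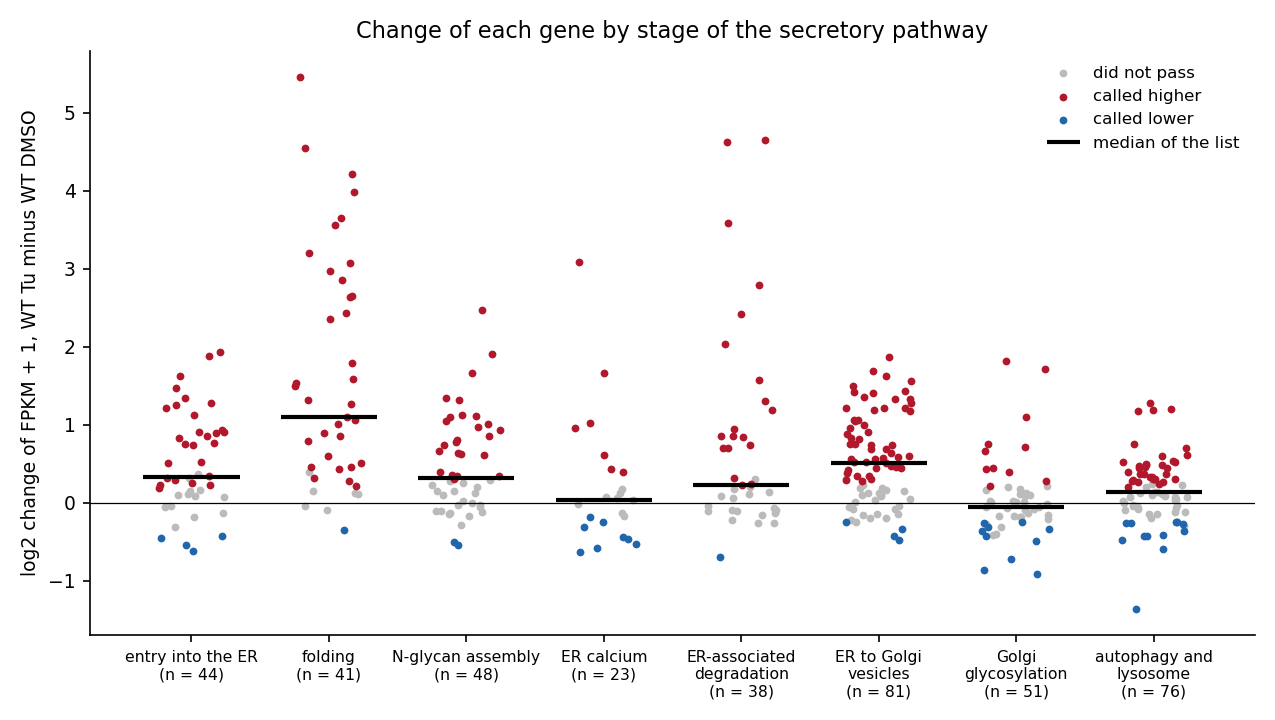
Log2 change of each tested gene (vertical axis, WT Tu minus WT DMSO) for 8 lists along the secretory pathway (horizontal axis, number tested in brackets); the black bar is the list's median. The bar stands at 0.51 for ER to Golgi vesicles and 0.33 for entry, and near 0 for ER calcium and Golgi glycosylation, where points lie on both sides.

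Lysosome and autophagy genes leaned upward, with 34 higher (44.7%) and 12 lower (15.8%) of 76 tested, beside 18.5% and 16.8% over all genes. Their median was 0.14 (33 and 7 with the GC trend removed, 25 and 17 scaled to total fragments). Another 10 were under the filter. Atg13, of the complex that starts autophagosomes, rose from 12.1 to 30.6, and the proton pump subunits Atp6v0d1 and Atp6v1b2 from 30.6 to 72.5 and from 33.0 to 75.2. The ER-phagy receptors, which mark ER for autophagy, split. Retreg1 read 14.9, 21.4 and 22.5 in WT DMSO against 51.7, 43.7 and 41.1 in WT Tu (log2 1.19 ± 0.15, limma adjusted p = 0.000430). Retreg3 read 29.6, 26.6 and 28.6 and then 9.97, 11.2 and 10.1 (log2 -1.36 ± 0.06, limma adjusted p = 1.06e-06). Neither gene's groups overlapped. The remaining member of that family, Retreg2, did not pass (45.4 and 42.8, limma adjusted p = 0.196), but did when scaled to total fragments (log2 -0.21).

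Among the sensors and factors of the response itself, 11 of 29 tested genes were higher (37.9%) and 3 lower (10.3%). The shares over all genes were 18.5% and 16.8%. The list's median was 0.07 (9 and 5 scaled to total fragments). Ddit3, which encodes CHOP (chromosome 10, 127290774 to 127296288, mm10), read 35.6, 50.1 and 53.4 in WT DMSO against 457, 498 and 507 in WT Tu, 10.5-fold higher with no overlap (log2 3.38 ± 0.15, limma adjusted p = 7.77e-07). The sensors Atf6 (25.5 to 62.9) and Eif2ak3 (4.61 to 12.6) rose, whereas the mean FPKM of Ern1 was 47.2 and 47.6 (log2 0.01 ± 0.04, limma adjusted p = 0.833). Wfs1, an ER membrane protein, rose from 6.96 to 29.7. Of the phosphatase subunits that undo the work of PERK, Ppp1r15a rose (log2 1.22) and Ppp1r15b fell (log2 -0.49). Over all 623 tested transcription factors in the file's annotation, 117 were higher and 122 lower, near the share of all genes, and of its 34 bZIP factors 13 were higher and 4 lower. Outside the usual names, Zfp57 rose from 0.626 to 5.21, Zfp651 from 2.03 to 11.3, Bhlha15, a factor of secretory cells, from 1.00 to 4.90, and Klf15 from 1.43 to 4.56. The WT DMSO values of Zfp57 were all under FPKM 1, so it passed the filter through WT Tu alone, and its promoter holds the ERSE letters close to the start. Nktr, which ends within 5000 bases before Zfp651 on the same strand, rose from 7.03 to 23.7. The part of Nktr reads in the rise of Zfp651 was not tested.

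Genes linked to ATF4 included rises, falls and members that did not pass. Mean FPKM of Atf4 itself was 224 in WT DMSO and 273 in WT Tu (log2 0.27 ± 0.12, limma adjusted p = 0.125); its WT Tu values were 216, 297 and 305, and without WT Tu replicate 1 it passed, at 0.43. Asns, asparagine synthetase and a standard ATF4 target, read 73.4, 74.6 and 72.8 and then 81.3, 71.3 and 67.5, overlapping groups with a log2 difference of -0.01 ± 0.07 (limma adjusted p = 0.930). Phgdh (57.9 and 54.9) and Gdf15 (153 and 151) did not pass either. Fgf21, a hepatokine, read 9.10, 5.68 and 6.86 and then 3.40, 3.74 and 4.63, 1.84-fold lower (log2 -0.73 ± 0.16, limma adjusted p = 0.00768). Of 18 tested stress hormones and genes linked to mTOR 3 were higher (16.7%) and 6 lower (33.3%), beside 18.5% and 16.8% over all genes. Their median was -0.05 (1 and 8 scaled to total fragments). Trib3, a pseudokinase and ATF4 target, rose from 128 to 158 (log2 0.30 ± 0.06, limma adjusted p = 0.00587), but did not pass when scaled to total fragments (0.17), and Il6ra, an interleukin 6 receptor chain, rose from 5.78 to 8.56. The mTOR inhibitor Ddit4 fell from 19.5 to 9.53, and Angptl8, a regulator of triglyceride handling, from 44.0 to 24.1. Of 31 tested genes of amino acid supply 11 were higher (35.5%) and 5 lower (16.1%), or 9 and 10 scaled to total fragments. Got1 rose from 73.6 to 145 and Slc1a4 fell from 27.6 to 16.4. Aminoacyl-tRNA synthetases were higher in 12 (57.1%) and lower in 1 (4.76%) of 21 (5 and 3 scaled to total fragments). Most of those rises were small, and Wars stood apart at 19.0 to 54.3. Mars, which shares 68 bases with Ddit3 on the other strand, fell from 36.3 to 28.4.

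Other large rises fell in no single pathway. Piga, which starts the synthesis of GPI anchors, rose 9.20-fold, from 1.77 to 16.3. Tspyl2, a nucleosome assembly protein, rose 7.89-fold, from 2.84 to 22.4. Hs3st3b1, a sulfotransferase of heparan sulfate, rose 6.45-fold (log2 2.51 ± 0.13). Mfsd2a, which carries lysophosphatidylcholine into cells, read 13.9, 12.5 and 11.9 and then 58.1, 54.7 and 54.4 (4.36-fold, log2 2.04 ± 0.08). Slc17a9, a vesicular nucleotide transporter, rose from 2.41 to 13.2. Il23a, which encodes the p19 chain of interleukin 23, read 1.42, 4.35 and 3.16 and then 18.5, 17.9 and 24.4, 6.81-fold higher (log2 2.48 ± 0.30, limma adjusted p = 0.000296). Its counts were small beside those of most genes named here, at 51, 161 and 112 fragments in WT DMSO against 591, 632 and 811 in WT Tu, and the groups did not overlap. Oat, ornithine aminotransferase, was 2.90-fold higher (12.8 to 37.2), and Irs2, an adaptor of insulin signalling, 3.23-fold (1.63 to 5.28).

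**Figure D4:**
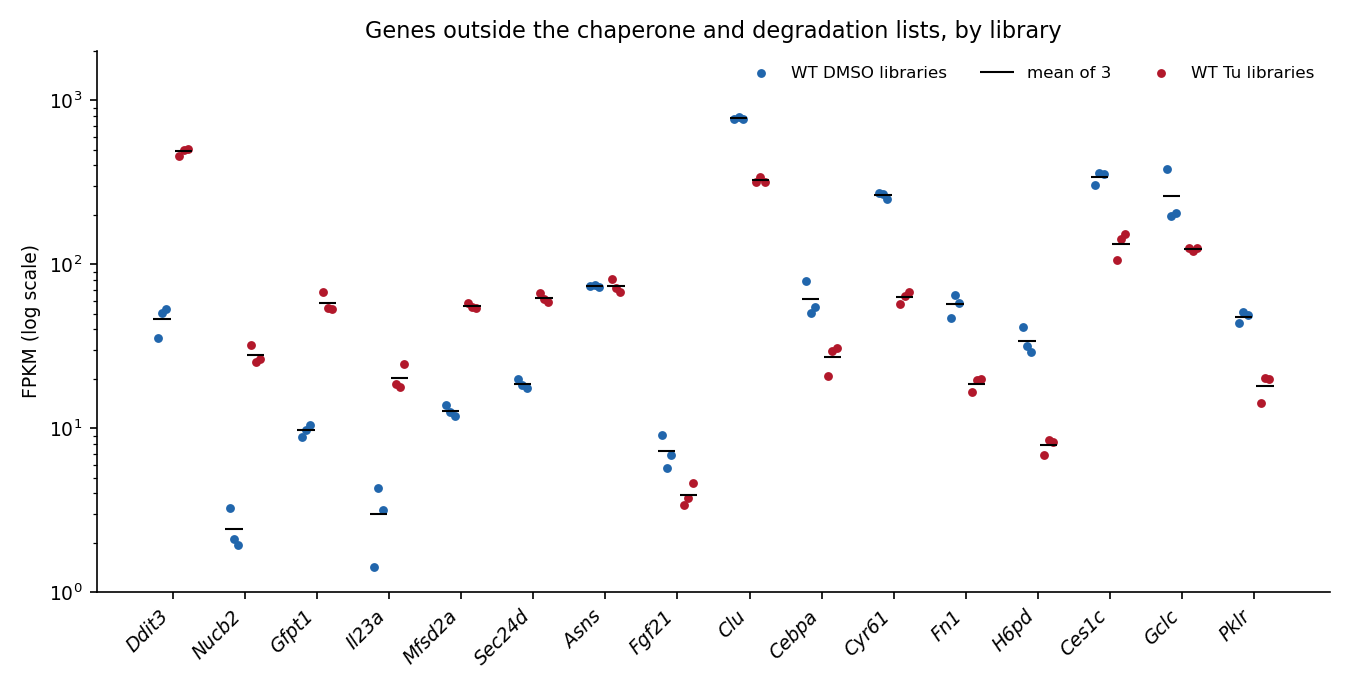
FPKM (vertical axis, log scale) of 16 genes outside the chaperone and degradation lists in each of the 3 WT DMSO (blue) and 3 WT Tu (red) libraries, with the mean of each group as a bar. Asns is the gene here whose groups overlap; Nucb2 and Ddit3 rise by more than 10-fold, and Clu, Cyr61, Fn1 and H6pd fall without overlap.

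Genes of cell shape and attachment were called lower far more often than higher. Of 52 tested genes of actin and adhesion 35 were lower and 4 higher (median -0.32), and of 42 of junctions and matrix 26 were lower and 2 higher (median -0.36), beside 16.8% lower over all genes; 22 more of the second list were under the filter. With the GC trend removed the counts were 29 lower and 3 higher, and 23 lower and 2 higher. Cyr61, a secreted target of the coactivator YAP, read 271, 268 and 250 in WT DMSO against 57.0, 64.2 and 67.4 in WT Tu, 4.19-fold lower (log2 -2.05 ± 0.07, limma adjusted p = 1.57e-07). Ctgf, another, read 4.65, 4.01 and 4.21 and then 0.737, 0.355 and 0.521, and Ajuba, an adaptor at junctions that binds the LATS kinases, went from 66.3 to 14.1. In each of these genes the WT Tu libraries lay far below every WT DMSO library. Every WT Tu value of Ctgf was under FPKM 1. It thus passed the filter through WT DMSO alone and had to be lower in WT Tu. Of 27 tested genes of the Hippo pathway and YAP targets 12 were lower (44.4%) and 4 higher (14.8%), beside 16.8% and 18.5% over all genes. With the GC trend removed the counts were 13 and 2. The mean FPKM of Yap1 was 17.8 and 17.1 (limma adjusted p = 0.607), and that of its relative Wwtr1 rose from 27.1 to 39.1.

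Among the structural genes, Fn1 (fibronectin) read 47.1, 65.0 and 58.3 and then 16.5, 19.7 and 19.8, 3.04-fold lower (log2 -1.55 ± 0.12, limma adjusted p = 2.58e-05). The basement membrane protein Nid1 fell from 46.8 to 13.8, the membrane linker Msn from 33.5 to 10.2, the integrin chain Itga3 from 23.7 to 7.69, the crosslinker Flna from 45.4 to 19.7 and the tight junction protein Cldn3 from 80.2 to 33.8. Tes, a focal adhesion protein (log2 1.33), and the matrix protease Mmp19 (3.32 to 11.8) rose. Endothelial markers moved with these genes: 5 of the 12 in the list passed the filter, all 5 were lower, and the list summed to FPKM values of 13.5 to 14.4 in WT DMSO and 5.79 to 6.88 in WT Tu, with none of the 12 at 0 in all libraries. At sums this low a marker can pass the filter through WT DMSO alone, and such a marker had to be lower in WT Tu. The 10 stellate cell markers were all under the filter, with sums of 0.297 to 0.572 and 0.407 to 0.612. The part of other cell types in these falls was not tested.

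Immune genes were lower more often than higher, in 20 (43%) and 4 (8.5%) of 47 tested, beside 16.8% and 18.5% over all genes. Their median was -0.25 (16 and 3 with the GC trend removed). Ccl2, a monocyte chemokine, read 23.5, 23.1 and 18.1 and then 4.75, 3.24 and 4.40, 5.22-fold lower with no overlap (log2 -2.14 ± 0.14). The neutrophil chemokine Cxcl1 fell from 54.7 to 18.9 and the adhesion molecule Icam1 from 15.7 to 7.59. Il23a, above, went the other way. Leukocyte markers were nearly absent: of 11, only Camp, a neutrophil granule gene, passed the filter. It was higher, at 8, 10 and 9 and then 62, 54 and 60 fragments. Without any 1 of the WT Tu libraries Camp was under the filter, so it passed through WT Tu alone and had to be higher there. Nme6, on the other strand, lies within 5000 bases of Camp and rose from 11.2 to 39.2. The part of Nme6 reads in the rise of Camp was not tested. Of 10 Kupffer cell markers 2 passed the filter, Lyz2 (1.48 to 0.149) lower and Cd68 (83.1 to 107) higher. Lyz2 passed it through WT DMSO alone and had to be lower in WT Tu. Cd68 did not pass without WT DMSO replicate 1 (log2 0.28) or WT Tu replicate 2 (0.34) or 3 (0.32), nor scaled to total fragments (0.24). Vsig4 was at 0 in all libraries, and the list summed to 75.3 to 93.0 in WT DMSO and 96.9 to 114.8 in WT Tu. Their part in the immune changes was not tested.

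IRE1 cuts certain ER-bound mRNAs. Of 15 tested candidates for such decay 10 were lower (66.7%) and 2 higher (13.3%), beside 16.8% and 18.5% over all genes. Their median was -0.48 (8 and 2 with the GC trend removed), and 6 more were under the filter. Galnt10 and Ergic3, named above, were among the tested candidates, with Hgsnat, a lysosomal enzyme (185 to 130), and Tapbp, which loads MHC class I (39.5 to 22.7). Per1 rose instead, from 14.6 to 27.6. Antioxidant genes were lower in 17 (47.2%) and higher in 1 (2.78%) of 36 tested. Their median was -0.21 (23 and 0 scaled to total fragments). Osgin1, an oxidative stress response gene, fell from 741 to 357, and Txnrd1, thioredoxin reductase, from 217 to 141. Gclc, which limits glutathione synthesis, read 380, 195 and 206 and then 126, 121 and 126 (log2 -0.99 ± 0.22, limma adjusted p = 0.00758); WT DMSO replicate 1 was far above the rest, and the other WT DMSO libraries were still above every WT Tu library. Hmox1, heme oxygenase, was at 376 and 322 and did not pass. Clu, a secreted chaperone, was among the most abundant genes that fell, at 769, 794 and 771 and then 319, 342 and 316 (log2 -1.26 ± 0.06, limma adjusted p = 8.29e-07).

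Genes of fat metabolism moved in both directions. Of 45 tested genes of sterol and fat synthesis 20 were lower (44.4%) and 8 higher (17.8%), beside 16.8% and 18.5% over all genes. The list's median was -0.15 (16 and 7 with the GC trend removed, 27 and 5 scaled to total fragments). Dgat2, which makes triglyceride (73.6 to 37.2), and Gpam, which starts glycerolipid synthesis (14.7 to 7.09), fell, while Mvd, an early sterol enzyme, rose from 5.43 to 14.9 and the mean FPKM of Fasn, fatty acid synthase, was 29.6 and 29.5. Of 42 tested genes of fat oxidation and ketones 10 were higher (23.8%) and 5 lower (11.9%), beside 18.5% and 16.8% over all genes. Their median was 0.00 (7 and 10 scaled to total fragments). Pdk4, which restrains pyruvate oxidation, rose by 1.14 on the log2 scale, and Cpt1a, which admits fatty acids to mitochondria, by 0.49. Phospholipid synthesis had 6 higher (24%) and 4 lower (16%) of 25, near the shares over all genes (4 and 11 scaled to total fragments). Urea and glucose synthesis had 3 higher and 9 lower of 46, with 19.6% lower beside 16.8% over all genes. Among single genes, H6pd, which makes NADPH inside the ER, read 41.2, 31.5 and 29.0 and then 6.83, 8.51 and 8.27, 4.31-fold lower (log2 -1.97 ± 0.12, limma adjusted p = 7.11e-06). The groups were widely separate. Pklr, the liver pyruvate kinase, fell from 47.8 to 18.2; it shares 711 bases with Hcn3 on the other strand.

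Plasma protein genes and liver transcription factors were called lower more often than higher. The 79 tested plasma protein genes held 22 lower (28%) and 6 higher (7.6%), beside 16.8% and 18.5% over all genes. Their median was -0.10, and the counts were 13 and 3 with the GC trend removed and 29 and 3 scaled to total fragments. Alb did not pass (log2 -0.01 ± 0.07, limma adjusted p = 0.899), while Hc, complement C5 (15.8 to 5.73), and F7, a clotting factor (13.7 to 5.37), fell. Of 34 liver transcription factors 12 were lower (35%) and 6 higher (18%). The list's median was -0.22 (10 and 5 with the GC trend removed, 18 and 3 scaled to total fragments). Cebpa read 79.4, 50.6 and 55.2 and then 20.9, 29.7 and 30.9, 2.27-fold lower without overlap (log2 -1.15 ± 0.18, limma adjusted p = 0.00146). Hnf4a fell from 11.2 to 6.43 and Foxa2 from 4.52 to 2.32. The 6 that rose included Foxa1 (5.69 to 8.08), Nr1h4 (3.50 to 5.54) and Klf15, named above. The 105 tested genes of cytochromes P450 and conjugation held 17 lower and 9 higher (16.2% lower, no more than the 16.8% over all genes; median 0.04; 17 and 5 with the GC trend removed, 25 and 5 scaled to total fragments). The largest falls among them were carboxylesterases of the Ces1 cluster, Ces1c at 305, 361 and 356 and then 106, 142 and 152 (log2 -1.36 ± 0.13) and Ces1b from 9.57 to 1.54; these genes are close copies, and reads may be split between them. Cyp1a2, a cytochrome P450, fell by 0.87 on the log2 scale.

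Few genes passed the test in some large sets. Of 82 genes of the cytosolic ribosome 3 were higher (3.66%) and 3 lower (3.66%). Of 76 nuclear genes of oxidative phosphorylation 2 were higher (2.63%) and 7 lower (9.21%). Scaled to total fragments these became 0 and 21, and 0 and 30, and without WT Tu replicate 1 the ribosome had 9 higher and 8 lower. By contrast the proteasome, which receives proteins pulled from the ER, had 17 of 46 genes lower (37.0%) and 3 higher (6.52%). The shares over all genes were 16.8% and 18.5%. Its median was -0.15 (28 and 1 scaled to total fragments), and Psmd3 (57.8 to 41.5) and Psmc4 (77.0 to 56.2) were among the genes that fell. Cytosolic heat shock genes were lower in 9 (23.7%) and higher in 4 (10.5%) of 38, beside 16.8% and 18.5% over all genes. Scaled to total fragments the counts were 17 and 2. Hspb1 fell from 68.9 to 38.0 and Bag3 rose from 46.0 to 81.9.

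**Figure D5:**
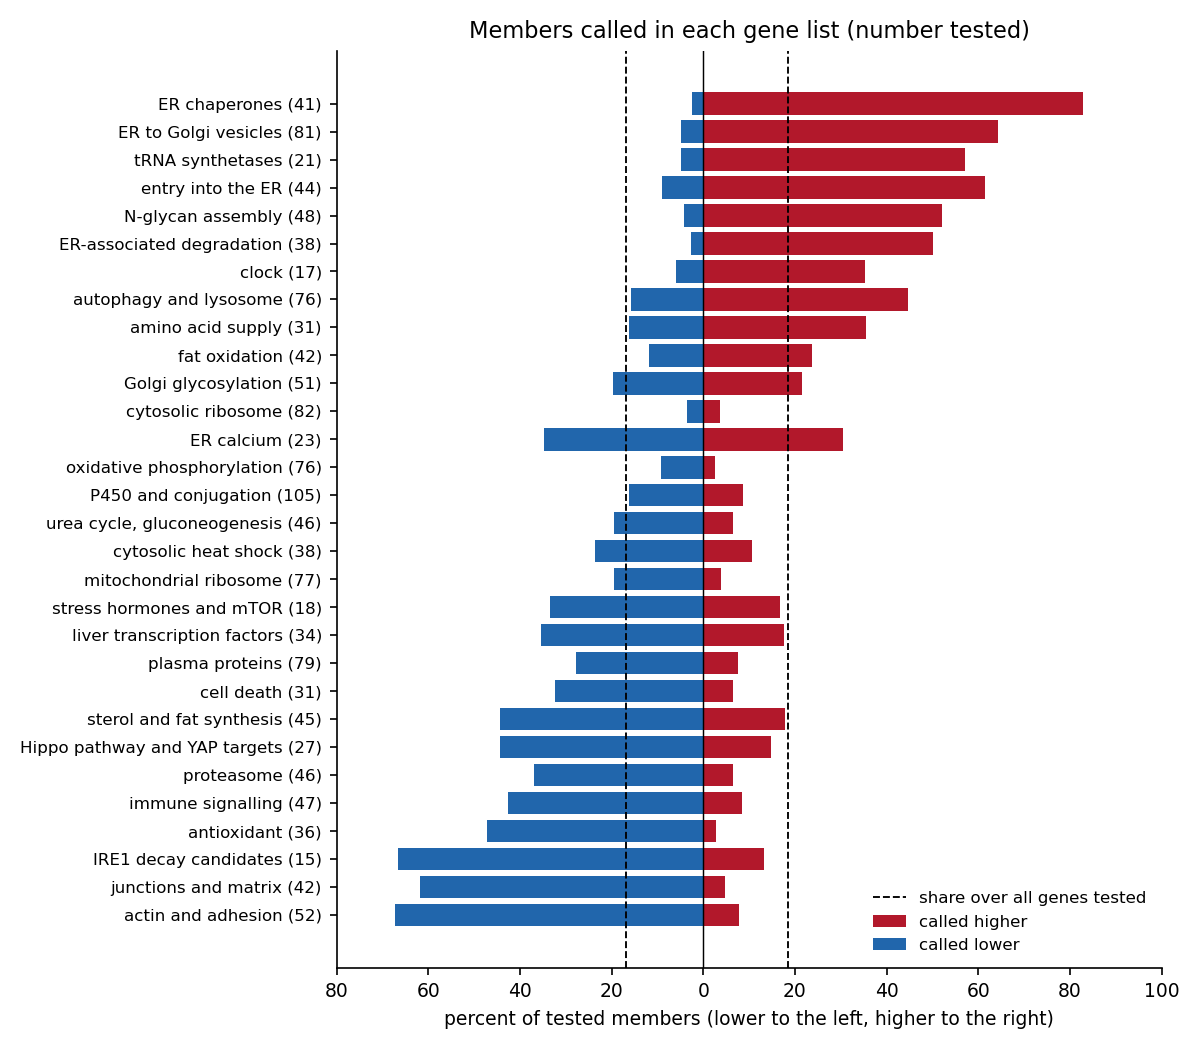
Percent of the tested members of 30 gene lists that were called higher (red, right) or lower (blue, left) in WT Tu; dashed lines mark the shares over all 11311 genes, 18.5% and 16.8%. Chaperones, vesicle transport, entry and glycan assembly extend to the right, and actin, junctions and candidates for decay by IRE1 to the left.

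Some noncoding genes and pseudogenes that rose lay beside a protein-coding gene that rose. Of 50 such genes called higher by at least 1, 16 (32.0%) were within 5000 bases of a protein-coding gene called higher by at least 1. The same held for 14 of 1272 noncoding genes and pseudogenes that did not pass (1.1%) and for 1 of 81 called lower (1.23%). Of the 50, 20, and of the 16, 9, had all 3 WT DMSO libraries under FPKM 1, so they passed the filter through WT Tu alone and had to be higher there. Gm15344 lies inside Hsp90b1, an ER chaperone, on the same strand and rose from 1.44 to 51.5. AC154760.1, near Dnajc3 and Uggt2, rose from 4.43 to 29.3, and Gm45151, near Nucb2, from 0.317 to 5.69. The strand setting of the counting is not given in the sources used here, so reads of overlapping or neighbouring genes cannot be told apart. Rny1, a small cytoplasmic RNA, had 0, 3 and 0 fragments in WT DMSO against 39, 35 and 24 in WT Tu. It lies on chromosome 6 at 47788069 to 47788180, and the ER chaperone gene Pdia4 at 47796141 to 47813430, both on the minus strand. Mean FPKM of Pdia4 went from 88.3 to 1648. The part of Pdia4 reads in the rise of Rny1 was not tested.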

How the data were processed

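Primary hepatocyte RNA from 9 libraries was given as 1 table. Per the submitters' processing notes the tools were HISAT2 2.2.1 and featureCounts 1.5.0-p3 with the build mm10; their roles, the annotation release and the strand setting are not given in the sources used here. The deposited values are FPKM, computed by the authors for 54532 genes, with a library size that differed from the total of fragments. Multiplying the deposited FPKM by gene length and by the library size behind it, found from the steps between low values, recovered fragment counts that were whole within 0.001 for 100% of values. Gene symbols stored as dates (27) were restored by gene ID.

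The deposited values on the scale log2(FPKM + 1) were fitted in limma 3.58.1 (R 4.3.3), with the trend option and 3 group means over the 9 libraries; the 3 libraries of COX-2 CKO cells given tunicamycin entered only the shared estimate of spread. Tests were two-sided, adjusted by Benjamini-Hochberg over the 11311 genes tested at 0.05. Each fold is a ratio of mean FPKM; the log2 change understates the change of low genes. Lists are given by counts and medians, without a test, to be read beside the 18.5% higher and 16.8% lower over all genes. Members and lists were chosen with earlier results of these data known. Named genes were the 40 largest changes in each direction outside the chaperone and degradation lists, up to 8 called members of each list in each direction, members named as not passing, the 15 largest differences in FPKM, transcription factors and noncoding genes by the same kind of rule; Dpagt1, Rab1a, the carriers of a promoter element and Gm21320 were named after their values were seen. Promoters (RefSeq, GRCm38.p6) were matched by symbol for 7992 genes, 10141 promoters in all.

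Simulated data with 11072 genes were used to test the steps: simulated log2 changes of 0.5, 1 and 2 were recovered for 35.8%, 75.0% and 95.4% of genes, and 0.0552% of unchanged genes were called. Only 196 of these genes were changed and spreads were shuffled across genes, whereas 35.3% of genes were called in the data. The adjusted threshold depends on the share of changed genes, so these rates do not carry over to the data. Alternatives were other pseudocounts, filters, scalings and fits, voom on the recovered fragments, removal of the GC trend, and leaving out each library; where 1 library is left out, the others of its group stand for its spread.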

Additional observations from a re-analysis of the deposited data

How the results depend on the processing

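Counts of genes called were recomputed under 11 other settings and without each library in turn. The total of 3989 genes ranged from 3001 (filter at FPKM 5) to 4553 (scaled to total fragments), with 4249 by voom on recovered fragments, 3123 with only the 6 libraries fitted and 3327 with the GC trend removed. The count called lower moved from 1902 to 3137 when scaled to total fragments. The count that fell by at least 1, 100 genes, was 214 with a pseudocount of 0.1, 246 by voom, 154 scaled to total fragments and 66 with the filter at FPKM 5 (the cause was not tested); the rises of at least 1 stayed within 1.5 times of 271. Without 1 library each, the total ranged from 2951 to 3763, higher from 1641 to 1980, lower from 1310 to 1783, rises of at least 1 from 232 to 274 and falls of at least 1 from 83 to 128. Replicate numbers did not pair the libraries, and with the replicate block 3733 genes were called, 1985 higher and 1748 lower. Of 150 named genes with a fit, 143 kept their direction and their side of the threshold in every setting that tested them; the exceptions were Atf4, Trib3, Cd68, Rab1b, Retreg2, Gm21320 and Acacb. In the simulated data a log2 change of 0.5, the smallest simulated, was recovered least often. Some changes named here are under 0.5.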

Other observations

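Several pairs of related genes passed the test in opposite directions; the pairs were picked after their values were seen, and the difference within a pair was not tested. Rab1a, a GTPase of ER to Golgi transport, rose from 47.2 to 117, while its near relative Rab1b fell from 56.8 to 42.4, a fall that did not pass with the GC trend removed. Tram1, a helper of the ER channel, rose from 58.1 to 137, and Tram2 fell from 2.06 to 1.00. The septin Sept11 rose from 14.3 to 38.2, and Sept9 fell from 9.40 to 4.98. The pairs Retreg1 and Retreg3, and Ppp1r15a and Ppp1r15b, described above, were called in opposite directions too. Related genes can share reads, and how the counting assigned such reads is not given in the sources used here.

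Clock genes were higher in 6 (35.3%) and lower in 1 (5.88%) of 17 tested, beside 18.5% and 16.8% over all genes. Scaled to total fragments the counts were 5 and 4. Cry1, a repressor of the clock, read 19.1, 19.1 and 18.7 in WT DMSO against 36.5, 34.5 and 34.8 in WT Tu (limma adjusted p = 7.92e-06), and Nfil3 rose from 58.4 to 97.6.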
